A study of Mus musculus with 28 samples.

Results

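Barcodes that held little RNA yet a clear set of oocyte transcripts made up 146 of the 38274 barcodes that passed the gene and mitochondrial filter in 4 single-cell libraries of young mouse ovary. They had at least 1000 detected genes, at most 20% mitochondrial UMIs and fewer than 10000 UMIs (unique molecular identifiers, each marking 1 captured transcript), and the oocyte genes *Zp3*, *Ooep*, *Gtsf1*, *Dppa3* and *Dppa5a* together made up at least 0.3% of their UMIs. These values chose the barcodes, so the level of the 5 genes and the low RNA content are given as a description only. The barcodes are called oocyte-marked low-RNA barcodes here, because no cell type was assigned to them.

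The study asked how ovarian cells respond to DNA damage and what the checkpoint kinase CHEK2 contributes. The pooled ovaries of 4 females aged 7 days were dissociated with collagenase and trypsin, passed through a 40 µm mesh and loaded on the 10x Chromium platform, 6 h after sham treatment or a whole-body dose of 0.5 Gy of ionizing radiation (IR). The libraries were wild-type non-irradiated, wild-type irradiated, *Chek2*-/- non-irradiated and *Chek2*-/- irradiated, and the *Chek2*-/- females lacked functional CHEK2 in every tissue, not in oocytes alone. With 1 library per condition no test between libraries was possible, and the 95% intervals below are exact ones that cover counting error only, not the spread between animals or dissociations.

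In the young ovary most oocytes rest in primordial follicles, each wrapped by flattened pregranulosa cells, while a smaller number have begun to grow. Growing oocytes store large amounts of mRNA for the early embryo and secrete the zona pellucida glycoproteins that coat the egg. CHEK2 passes the signal of DNA breaks to p53 and, in oocytes, to the p53 relative TAp63, and primordial oocytes are known for dying after doses that somatic cells survive. In a droplet assay a barcode can hold a whole cell, a broken cell, several cells or free RNA, and transcripts of different compartments (mitochondria, nucleus, cytoplasm) can then be present in unequal parts.

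The 4 libraries held 9488 to 11053 barcodes and 182774110 to 209716655 UMIs. After the filter, the median barcode held 14352 UMIs in the wild-type non-irradiated, 14747 in the wild-type irradiated, 16015 in the *Chek2*-/- non-irradiated and 17724.5 in the *Chek2*-/- irradiated library. *Chek2*, the targeted gene, had 10.8 and 10.5 CPM (counts of a gene scaled by the total UMIs of the summed barcodes, as counts per 1e+06) over the wild-type and 3.58 and 3.79 over the *Chek2*-/- libraries (non-irradiated, then irradiated). It was thus lower in both *Chek2*-/- libraries, and the remaining UMIs were not placed along the gene, so whether they lie outside its deleted part was not tested. The oocyte-marked low-RNA barcodes themselves held 4, 5, 0 and 1 *Chek2* UMIs in the same order, too few to compare. None of their barcode sequences occurred in another of the 4 libraries, whereas 83 to 127 barcodes per library did, and none of the 146 was among the 389 to 566 doublets per library called by Scrublet. Scrublet was run over all filtered barcodes, and whether it can find mixed droplets of low RNA content was not tested.

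Under the limits of the rule, the wild-type irradiated library held the most oocyte-marked low-RNA barcodes and the *Chek2*-/- non-irradiated library the fewest. There were 30 in the wild-type non-irradiated library, a share of 0.310% of its filtered barcodes (exact binomial interval 0.209 to 0.443%). The wild-type irradiated library had 74 (0.715%, 0.562 to 0.897%), an interval above that of the non-irradiated library. The *Chek2*-/- libraries had 6 without irradiation (0.0660%, 0.0242 to 0.144%) and 36 with it (0.392%, 0.275 to 0.543%), and these intervals did not overlap either. The wild-type and *Chek2*-/- irradiated intervals did not overlap, while those of *Chek2*-/- irradiated and wild-type non-irradiated did. The lead of the wild-type irradiated library was not kept under 2 alternatives chosen after seeing the data. At a minimum of 500 genes the irradiated shares were 1.15% in wild-type and 1.33% in *Chek2*-/-, and among barcodes with few somatic transcripts (a somatic panel level, as defined further on, under 15%) they were 0.329% (34 of 10345) and 0.360% (33 of 9172), beside 0.259% in the wild-type non-irradiated library.

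Barcodes with the same oocyte rule but at least 10000 UMIs, called RNA-rich oocyte barcodes, numbered 162, 86, 69 and 105 in the order wild-type non-irradiated, wild-type irradiated, *Chek2*-/- non-irradiated and *Chek2*-/- irradiated, which is used throughout. For each 100 RNA-rich oocyte barcodes there were therefore 18.5, 86.0, 8.70 and 34.3 oocyte-marked low-RNA barcodes. The ratio was higher in the irradiated library of each genotype. In the wild-type libraries the number of RNA-rich oocyte barcodes was also lower after irradiation, and in the *Chek2*-/- libraries it was higher. How many oocytes were loaded was not measured, so fewer oocytes in the ovary and fewer recovered by dissociation cannot be told apart.

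The median oocyte-marked low-RNA barcode held 4742 UMIs (1573 to 9522) in the wild-type non-irradiated library and 2654 (1376 to 9945) in the wild-type irradiated library. In the *Chek2*-/- libraries the medians were 3951 (2201 to 9186) and 2561 (1357 to 6954). The corresponding medians of detected genes were 2282, 1586, 2043 and 1464. When every barcode was thinned to 1300 UMIs, with none left out, the medians became 887.5, 915.5, 925.5 and 901 genes, against 886 to 911.5 in RNA-rich oocyte barcodes and 773 to 790 in the other low-RNA barcodes. At equal depth the oocyte-marked low-RNA barcodes thus had about as many genes as RNA-rich oocyte barcodes and more than the other low-RNA barcodes. The rule sets a minimum of detected genes, and a barcode with few UMIs passes it only if they fall on many genes. The comparison therefore depends in part on the choice of barcodes and is a description. The other low-RNA barcodes are those under 10000 UMIs with the 5 oocyte genes below 0.05% of UMIs, and they numbered 2374, 2399, 1943 and 1632. They share the upper limit but held more RNA, with medians of 7731 to 8044 UMIs.

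All 5 genes of the rule were detected in 86 of the 146 barcodes, at least 4 in 125, and never fewer than 2. *Ooep*, a component of the subcortical maternal complex of the egg, was present in 145 barcodes and *Dppa3*, a maternal factor that protects methylation in the zygote, in 144. *Zp3*, which encodes a zona pellucida glycoprotein, was present in 134, *Gtsf1*, a factor of small RNA silencing in germ cells, in 123, and *Dppa5a*, an RNA-binding protein of germ and stem cells, in 100. The rule rested on 6 to 388 UMIs per barcode, with medians of 68, 23.5, 42.5 and 41.5 over the libraries. Their summed share had medians of 1.79%, 0.854%, 0.986% and 2.20%.

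To describe the barcodes with genes that the rule did not use, an oocyte panel of 233 genes and a somatic panel of 25 genes were taken from RNA-rich barcodes alone. The oocyte panel holds genes at least 20-fold higher in reference oocytes (at least 10000 UMIs and at least 1% of the 5 genes; 98, 60, 39 and 62 barcodes) than in RNA-rich barcodes under 0.05%, and the somatic panel holds the reverse. A barcode's oocyte panel level is its panel share as a percent of the reference oocytes of its library, and its somatic panel level is the same against the other RNA-rich barcodes. The panel and the 5 genes are both high in oocytes, so the panel level depends in part on the choice of barcodes.

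The oocyte panel level was spread differently in each library. In the wild-type non-irradiated library it had a median of 167% (interval 98.3 to 209%) and ran from 51.6 to 248%. The wild-type irradiated library had the lowest median, 45.1% (38.1 to 60.5%), with a range of 13.3 to 179%. In *Chek2*-/- libraries the medians were 69.6% without irradiation (48.5 to 189% over the 6 barcodes) and 84.2% with it (interval 78.8 to 86.3%, range 22.9 to 167%). RNA-rich oocyte barcodes had medians of 73.5%, 68.7%, 72.0% and 64.0%, and the other low-RNA barcodes had medians of 1.44%, 0.808%, 0.804% and 0.976% with a highest value of 13.8%. That last class was limited to few rule UMIs, so the rule itself sets much of this gap. Between the classes, 77 barcodes under 10000 UMIs with the 5 genes at 0.10 to 0.30% reached oocyte panel levels of up to 38.7%, and 31 of the 74 wild-type irradiated, 1 of the 36 *Chek2*-/- irradiated and none of the other oocyte-marked low-RNA barcodes lay at or below that level.

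**Figure D1:**
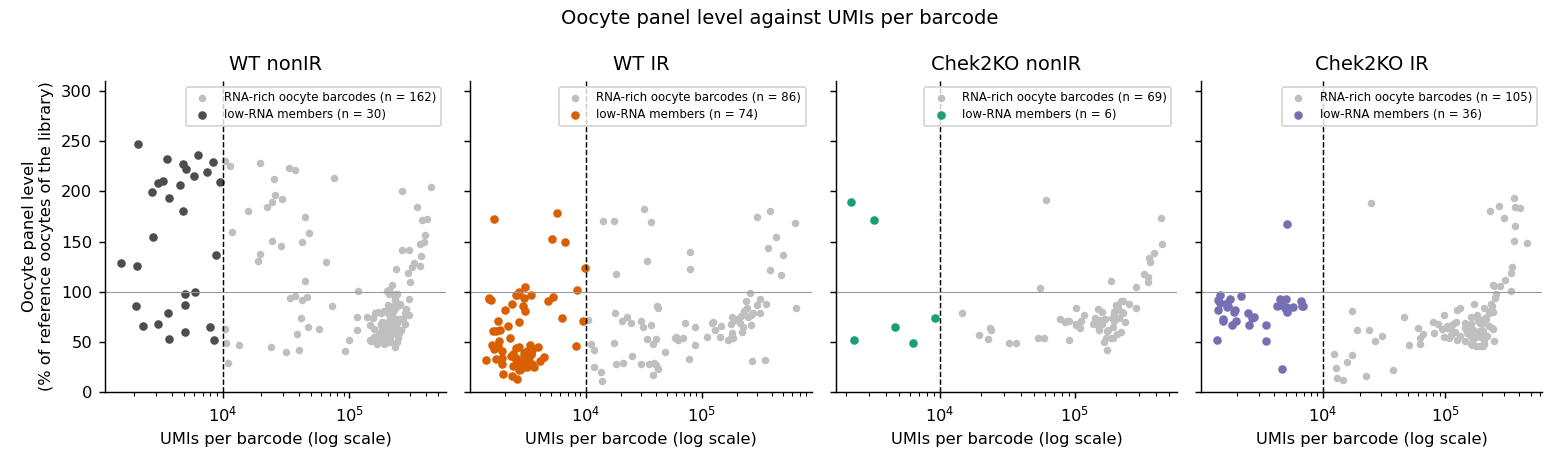
Oocyte panel level (percent of the reference oocytes of the library) against UMIs per barcode on a log scale, with 1 point per barcode, RNA-rich oocyte barcodes in grey and low-RNA members in colour, and a dashed line at 10000 UMIs. In the wild-type non-irradiated library 16 of 30 coloured points lie at 150% or more, in the wild-type irradiated library 43 of 74 lie under 50%, and in the Chek2-/- irradiated library 34 of 36 lie between.

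Levels of 50% and 150% were chosen as limits after the values had been seen, and they divide the libraries as follows. At 150% or more lay 16 of 30, 3 of 74, 2 of 6 and 1 of 36 barcodes. Under 50% lay 0 of 30, 43 of 74, 1 of 6 and 1 of 36. The *Chek2*-/- irradiated barcodes thus lay nearly all between these limits, and the wild-type irradiated ones mostly under 50%. The wild-type non-irradiated ones were split between 50 to 150% and a level above it. A level under 50% also occurred in RNA-rich oocyte barcodes, since the 11 with 10399 to 12279 UMIs had a median of 48.5%. The panel took 5.55%, 6.75%, 6.05% and 6.53% of UMIs in the reference oocytes, so the scale differs between libraries.

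Somatic transcripts were scarce in most of these barcodes, and the wild-type irradiated library was the exception. The median somatic panel level was 6.19% (0 to 20.9%) in the wild-type non-irradiated, 19.1% (0 to 325%) in the wild-type irradiated, 0.927% (0 to 5.28%) in the *Chek2*-/- non-irradiated and 4.58% (0 to 64.0%) in the *Chek2*-/- irradiated library. RNA-rich oocyte barcodes had medians of 3.32%, 3.49%, 3.02% and 2.93%, and the other low-RNA barcodes 227%, 221%, 249% and 255%. A level of 15% or more, a limit also set after seeing the values, was reached by 5, 40, 0 and 3 oocyte-marked low-RNA barcodes. A somatic level rests on few molecules, with medians of 2, 3, 0.5 and 1 UMIs of the panel per barcode, so single barcodes near the limit are not well placed.

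**Figure D2:**
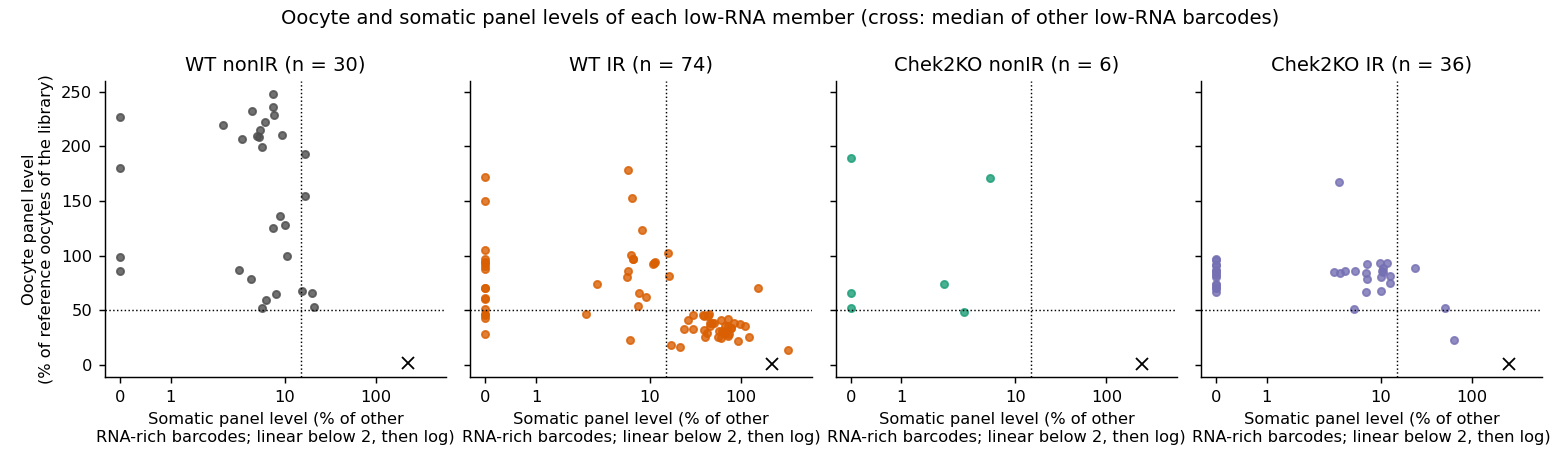
Oocyte panel level (percent of reference oocytes) against somatic panel level (percent of other RNA-rich barcodes, linear below 2 and then logarithmic), with 1 point per low-RNA member of each library, a cross at the median of other low-RNA barcodes and dotted lines at 50% and 15%. Of the 74 wild-type irradiated points, 37 lie in the lower right field, and the Chek2-/- irradiated library has 1 of its 36 there.

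In the wild-type irradiated library both features occurred in the same barcodes. Of the 43 barcodes with an oocyte panel under 50%, 37 had a somatic panel of 15% or more, and over the 74 barcodes the levels had a Spearman rho of -0.64. Both are shares of the same UMIs, so that a rise in one lowers the other. The 40 barcodes with a somatic panel of 15% or more had a median oocyte level of 34.4%, a mitochondrial share of 2.35% and 0.745% *Malat1*. The 34 below it had medians of 86.5%, 0.838% and 0.070%. Depth differed little, with 2810 and 2528 UMIs.

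The somatic transcripts in these 40 barcodes came from several cell types. Markers of stromal fibroblasts, which lay down the collagen matrix of the ovary, summed to 4133 CPM in the 40 barcodes and 120 in the other 34. *Col1a1*, a fibrillar collagen chain, had 875 against 9 CPM, and *Dcn*, a matrix proteoglycan, 527 against 9. Granulosa markers, from the cells that enclose the oocyte, summed to 2067 against 342, and *Inha*, the inhibin alpha subunit, had 365 against 46. Smooth muscle markers summed to 511 against 46.2 CPM. The barcodes had been divided by the somatic panel, which holds *Col1a1*, *Dcn* and other markers of these lists, so the values are a description.

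Markers of other cell types had fewer UMIs in the wild-type irradiated library than the lists above. Over its 74 barcodes the endothelial list had 5 UMIs with 3 of 7 genes at 0, the pericyte list 5 with 3 of 6 at 0, and the macrophage list 6 with 5 of 9 at 0. Surface epithelium markers had 28 UMIs (121 CPM) against 2 (13.8 CPM) in the wild-type non-irradiated library, a ratio of 7.11 (2.20 to 75.7), and erythroid markers 42 against 57 (0.46, 0.30 to 0.70). Both lists moved the same way in RNA-rich oocyte barcodes. There surface epithelium had 7 of 8 genes higher (3.07, 2.90 to 3.25) and erythroid 4 of 5 lower (0.23, 0.21 to 0.26). In the *Chek2*-/- non-irradiated library all 7 endothelial, 6 pericyte, 4 smooth muscle and 9 macrophage markers were at 0, as were 10 of 12 granulosa markers, while in the *Chek2*-/- irradiated library the 36 barcodes held 18 granulosa, 26 fibroblast and 16 endothelial UMIs, and the 33 of them with a somatic panel under 15% held 1 of the endothelial UMIs. Whether a somatic cell, its fragments or free RNA shared the droplet was not tested.

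The 16 wild-type non-irradiated barcodes at 150% or more stood apart by what they contained. Their median oocyte panel level was 213%, and their ribosomal protein transcripts took a median of 5.77% of UMIs (5.06 to 8.87%), against 18.0% in the 14 barcodes between 50 and 150%. *Gdf9*, a growth factor that oocytes secrete to granulosa cells, had 4534 CPM in the 16 and 597 in the 14. *Bcl2l10*, a BCL2 relative of the oocyte, had 2046 against 46, *Oosp1*, a secreted oocyte protein, 1288 against 31, *Npm2*, a histone chaperone of the egg, 2981 against 214, and *Zar1*, which binds maternal mRNA, 2892 against 199. *Kit*, the receptor for granulosa KIT ligand, went the other way with 76 against 428. These genes were compared after the barcodes had been divided by the panel that holds all of them, so the values are a description.

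Barcodes of that kind were also found among RNA-rich oocyte barcodes, where 23 of 162, 8 of 86, 2 of 69 and 9 of 105 lay at 150% or more. The ribosomal protein share was lower where the oocyte panel was higher, with a Spearman rho of -0.73 over the 30 wild-type non-irradiated and -0.69 over the 74 wild-type irradiated barcodes. Both shares have the same denominator. A ribosomal protein share under 10% was seen in 19 of 30, 8 of 74, 1 of 6 and 3 of 36 barcodes, in 17 of 162, 10 of 86, 1 of 69 and 8 of 105 RNA-rich oocyte barcodes, and in 48 of 2374, 37 of 2399, 28 of 1943 and 19 of 1632 other low-RNA barcodes. In the irradiated libraries that is 10.8% beside 11.6% in wild-type and 8.33% beside 7.62% in *Chek2*-/- for the first 2 classes. Ribosomal protein medians were 6.85%, 18.1%, 16.7% and 17.8%, beside 18.3%, 16.3%, 18.1% and 17.3% in RNA-rich oocyte barcodes.

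**Figure D3:**
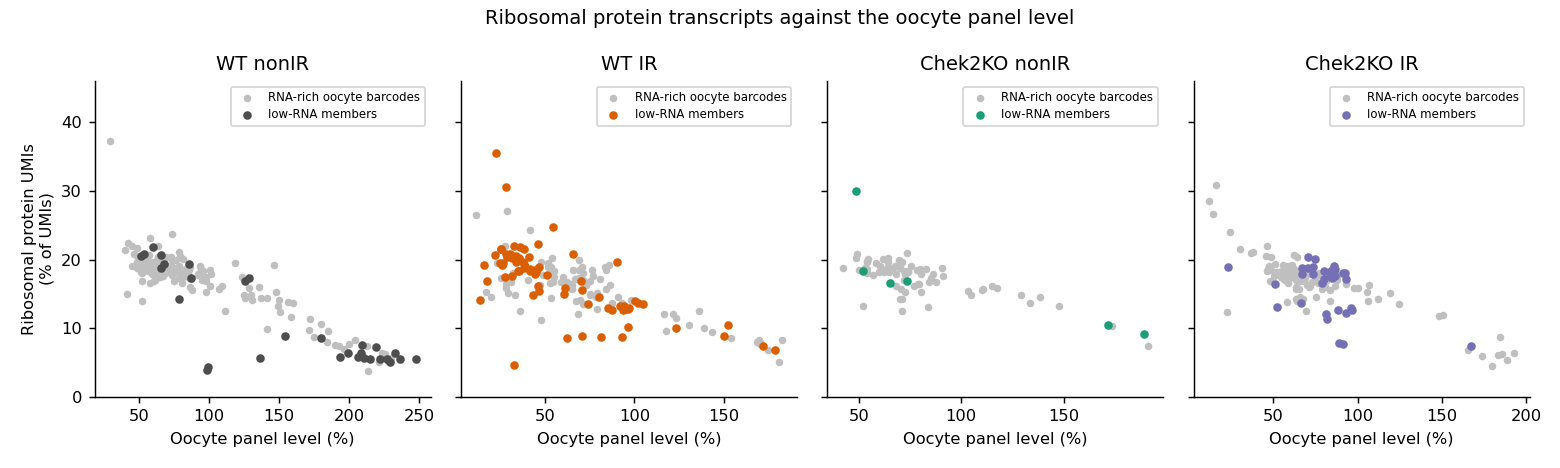
Share of UMIs from ribosomal protein genes against the oocyte panel level, both in percent, with 1 point per barcode for RNA-rich oocyte barcodes (grey) and low-RNA members (colour). The 16 wild-type non-irradiated members at 150% or more hold 5.06 to 8.87% ribosomal protein UMIs, and most coloured points lie among the grey points of their library, with a few below them.

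Another 3 wild-type non-irradiated barcodes were rich in the nuclear RNA *Malat1*, at 4.56 to 8.51% of UMIs. Their oocyte panel levels were 98.2%, 99.3% and 136%, and ribosomal protein genes took only 3.91 to 5.72%. Zona pellucida transcripts were high in them, with 23682 CPM for *Zp3* and 10919 for *Zp2*. Among the 74 wild-type irradiated barcodes 1 had *Malat1* above 4% (4.35%), with an oocyte panel level of 31.3%, a somatic level of 56.9% and 17.6% ribosomal protein UMIs, and none of the *Chek2*-/- barcodes did.

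Of the 36 *Chek2*-/- irradiated barcodes, 20 had the rule genes at 2% or more, again a limit chosen on these values. Those 20 held 1543 to 6954 UMIs, with an oocyte panel level of 66.7 to 93.2%, a ribosomal protein share of 16.6 to 19.0% and a mitochondrial share of 0.0224 to 1.36%. Over 817 genes their counts varied by 1.01 times the counting error (chi-square per degree of freedom). Over all oocyte-marked low-RNA barcodes of a library the same value was 2.07, 1.25, 2.48 and 1.29, and for RNA-rich oocyte barcodes thinned to 4000 UMIs it was 1.13, 1.27, 1.12 and 1.17. The value depends on depth and on the genes that pass the count minimum, so it is not comparable between the sets beyond this.

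Of the 6 *Chek2*-/- non-irradiated barcodes, 3 lay between 50 and 150%, 1 just below and 2 above. Their oocyte panel levels were 48.5%, 52.2%, 65.3%, 73.8%, 171% and 189%. Their mitochondrial shares, in the same order, were 2.43%, 0.693%, 0.214%, 0.218%, 3.07% and 0.227%. With 27905 UMIs in all, against 144547, 231644 and 118049 in the other libraries, their levels are the least precise.

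Mitochondrial transcripts took a smaller median share in oocyte-marked low-RNA than in RNA-rich oocyte barcodes in 3 of the 4 libraries, the exception being the wild-type non-irradiated library. The median mitochondrial share there was 5.84% (interval 3.79 to 7.77%, range 0.116 to 13.2%), beside 5.69% in RNA-rich oocyte barcodes. It was 1.81% (1.18 to 2.18%, range 0.104 to 9.02%) in the wild-type irradiated library, beside 3.50%. The *Chek2*-/- libraries had 0.460% (0.214 to 3.07%) beside 4.80% without irradiation, and 0.485% (interval 0.240 to 0.782%, range 0.0224 to 10.2%) beside 4.92% with it. Other low-RNA barcodes were at 6.17%, 6.35%, 6.40% and 6.60%. With fewer than 5000 UMIs in both classes, a limit set after seeing the data, the other low-RNA barcodes had medians of 8.25% (n = 195), 2.76% (n = 506, interval 2.41 to 3.33%), 8.68% (n = 190) and 8.11% (n = 173), and the oocyte-marked ones 5.39% (n = 17), 1.91% (n = 65, interval 1.55 to 2.33%), 0.460% (n = 4) and 0.627% (n = 28). In the wild-type irradiated library the shallower barcodes without oocyte transcripts thus had a low mitochondrial share too.

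A mitochondrial share under 1% was seen in 6 of 30, 22 of 74, 4 of 6 and 26 of 36 oocyte-marked low-RNA barcodes. In RNA-rich oocyte barcodes it was seen in 7 of 162, 14 of 86, 2 of 69 and 2 of 105, and in other low-RNA barcodes in 5, 17, 3 and 5 of 2374, 2399, 1943 and 1632. In the *Chek2*-/- irradiated library the share was lower in deeper barcodes (Spearman rho with UMIs -0.64, n = 36), and in the wild-type irradiated library it was higher where the somatic panel was higher (rho 0.51, n = 74). *mt-Co1*, the catalytic subunit of cytochrome c oxidase, had 8157, 3462, 1577 and 1194 CPM in the summed barcodes. Irradiation went with a 4.03 percentage point lower median in wild-type and a 0.0248 point higher one in *Chek2*-/- barcodes, and this difference between genotypes was not tested. The *Chek2*-/- direction depended on the limits, since with no mitochondrial limit the medians were 0.529% with and 0.693% without irradiation, and at a minimum of 500 genes 0.940% and 2.09%.

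The nuclear transcripts *Malat1* and *Xist* were lower than in other low-RNA barcodes. Summed with *Neat1* they stood at 9665, 6566, 323 and 1440 CPM, against 3134, 2145, 2316 and 2374 CPM in RNA-rich oocyte barcodes. The wild-type non-irradiated sum includes the 3 *Malat1*-rich barcodes. *Malat1* had medians of 0.0562%, 0.438%, 0.0268% and 0.0526%, against 2.52%, 2.36%, 2.60% and 2.67% in other low-RNA barcodes. RNA-rich oocyte barcodes lay at 0.213%, 0.167%, 0.175% and 0.211%, so the wild-type irradiated oocyte-marked low-RNA barcodes were above and the other 3 libraries below their RNA-rich counterparts. *Xist*, which coats the inactive X in somatic cells of females, had no UMI in 25 of 30, 50 of 74, 6 of 6 and 35 of 36 barcodes. Thinned to 1300 UMIs, *Xist* was found in 6.67%, 16.2%, 0% and 2.78% of them, in 14.5 to 24.7% of RNA-rich oocyte barcodes and in 77.7 to 83.3% of other low-RNA barcodes. Within the wild-type irradiated library it was in 10 of the 40 barcodes with a somatic panel of 15% or more and in 2 of the other 34.

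**Figure D4:**
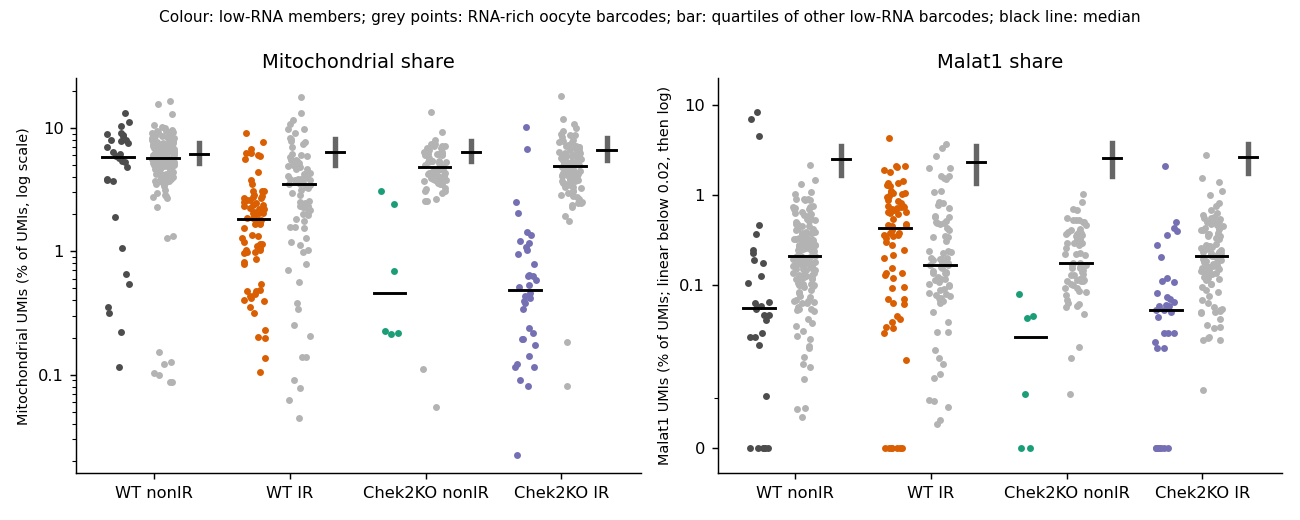
Share of UMIs from mitochondrial genes (left, log scale) and from Malat1 (right, linear below 0.02 and then logarithmic) in percent, by library, with low-RNA members in colour, RNA-rich oocyte barcodes in grey, a bar for the quartiles of other low-RNA barcodes and a black line at each median. Median mitochondrial shares of the members are 5.84%, 1.81%, 0.460% and 0.485% from left to right, and those of the other low-RNA barcodes 6.17% to 6.60%.

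The gene content of the wild-type irradiated barcodes was then compared with the wild-type non-irradiated ones, on UMIs summed over the barcodes of a library. Of 3908 genes with at least 20 UMIs, 446 were at least 2-fold higher (11.4%) and 451 at least 2-fold lower (11.5%). The split was 337 and 436 with 2 UMIs added in place of 0.5, and 499 and 252 among barcodes with an oocyte panel level under 150%. In RNA-rich oocyte barcodes the shares were 9.36% higher and 7.28% lower of 15230 genes. These counts are calls of size with no test, and they sum barcodes that differ within a library as described above.

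Oocyte genes outside the rule were on balance lower in the wild-type irradiated barcodes. Of 27 listed, 25 could be compared, of which 0 were 2-fold higher and 11 lower, with a median log2 ratio of -0.82 against 0.04 over all genes. The list summed to 14889 against 27417 CPM (ratio 0.54, 0.52 to 0.57). *Gdf9* had 786 against 2753 CPM (ratio 0.29, 0.24 to 0.34), *Khdc3* of the subcortical maternal complex 160 against 906 (0.18, 0.12 to 0.26) and *Zp2* 1049 against 3065 (0.34, 0.29 to 0.40). Among the listed genes without a lower level, 3 of which are given here after their values had been seen, *Sycp3*, of the meiotic chromosome axis, had 738 against 401 (1.83, 1.36 to 2.52), *Sohlh1*, a transcription factor of early oocytes, 363 against 228 (1.57, 1.05 to 2.45), and *Figla*, which switches on the zona genes, 458 against 422 (1.08, 0.78 to 1.51). With the somatic panel under 15% the oocyte list stood at 21098 CPM in 34 irradiated and 28517 CPM in 25 non-irradiated barcodes. With the oocyte panel level under 150% it stood at 14119 against 15678 CPM (71 and 14 barcodes, ratio 0.90, 0.84 to 0.97). The same list went the other way in RNA-rich oocyte barcodes (ratio 1.31), with 4 of 27 genes at least 2-fold higher and 0 lower.

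The ribosomal and mitochondrial lists moved apart between the wild-type libraries. Of 83 ribosomal protein genes, 23 were at least 2-fold higher after irradiation and 0 lower, with a ratio of sums of 1.62 (1.59 to 1.65). Of 12 mitochondrial genes 0 were higher and 9 lower, with a ratio of 0.35 (0.33 to 0.36). In RNA-rich oocyte barcodes the corresponding ratios were 0.84 and 0.70, with no gene of either list past 2-fold. The 16 wild-type non-irradiated barcodes at 150% or more, which hold little ribosomal protein RNA, enter the wild-type non-irradiated sum, and among barcodes under 150% the ribosomal ratio was 1.14 (1.11 to 1.16) and the mitochondrial one 0.33 (0.31 to 0.34).

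Somatic lists followed the 40 barcodes described above. All 7 fibroblast genes that could be compared were higher, with a ratio of sums of 5.23 (4.04 to 6.96), as were both smooth muscle genes and 2 of 6 granulosa genes (1.61, 1.29 to 2.02). Immediate early genes, which dissociation and stress switch on within minutes, had 6 of 9 higher and a ratio of 2.40 (1.98 to 2.94), with *Jun* at 3.26 (1.84 to 6.62), *Ier2* at 3.12 (1.88 to 5.73) and *Fos* at 1.20 (0.76 to 1.96). In RNA-rich oocyte barcodes the list went the other way, with 1 of 12 higher and 5 lower (0.65, 0.63 to 0.66). The immediate early list stood at 3209 CPM in the 40 barcodes with somatic transcripts, 1007 in the other 34 and 10071 in the other low-RNA barcodes of that library. Heat shock genes had 0 of 4 past 2-fold (ratio 1.00). That ratio joins unlike barcodes, since the wild-type non-irradiated ones had 7010 CPM at an oocyte panel level of 150% or more and 1897 under it. The wild-type irradiated ones had 4260 CPM under 50% and 5213 at 50% or more. Interferon-stimulated genes had 1 of 1 higher (35 against 7 UMIs), with 30 of the 35 UMIs in the 40 barcodes with somatic transcripts and 5 in the other 34. The list was also higher in RNA-rich oocyte barcodes, with 6 of 7 genes past 2-fold (3.81, 3.50 to 4.16). Dividing-cell genes had 0 of 6 higher and 1 lower (ratio 1.02), and the oxidative stress list, with 21 against 2 UMIs, had no gene to compare.

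Radiation genes were higher in the irradiated than in the non-irradiated wild-type barcodes. Of 20 listed targets of p53, 11 could be compared, of which 8 were at least 2-fold higher and 0 lower, with a median log2 ratio of 2.45. The study named *Mdm2*, *Cdkn1a*, *Bbc3*, *Perp*, *Ddit4* and *Phlda3* of this list as responding in oocytes of these libraries. The direction of the list is therefore not independent evidence. The list summed to 2297 against 719 CPM (ratio 3.18, 2.58 to 3.98), beside 2305 against 748 in RNA-rich oocyte barcodes. *Mdm2*, whose product degrades p53, had 686 against 96.9 CPM (6.86, 4.10 to 13.3). *Cdkn1a*, the inhibitor p21 of the cell cycle, had 160 against 13.8 (37 and 2 UMIs, 9.36, 2.98 to 98.9), and *Btg2*, an antiproliferative gene, 281 against 48.4 (5.45, 2.66 to 15.0).

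*Ccng1*, a cyclin induced by p53, had 26 against 1 UMIs (interval of the ratio 2.67 to 665), and *Bax*, a pore-forming cell death factor, 49 against 15 (1.99, 1.12 to 3.91). *Phlda3*, an inhibitor of AKT, had 40 UMIs (173 CPM) and *Bbc3*, the death factor PUMA, 23 (99.3 CPM), both against 0 in the wild-type non-irradiated library. With 3 counts over the library as the floor they were at least 8.32-fold and 4.78-fold higher. Of the pro-apoptotic BCL2 family list 1 of 2 comparable genes was higher (96 against 23 UMIs, ratio 2.56, 1.64 to 4.30).

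The list of 17 oocyte radiation genes was chosen by the study on these libraries, so its direction is not independent evidence. It held 204 UMIs (881 CPM) in the wild-type irradiated and 10 (69.2 CPM) in the wild-type non-irradiated barcodes, a ratio of 12.2 (6.78 to 26.9), beside 1405 against 79.4 CPM in RNA-rich oocyte barcodes (17.7, 16.9 to 18.5), and all 3 genes that could be compared were higher. *Fermt3*, a kindlin that activates integrins, had 38 UMIs (164 CPM) against 0, at least 7.90-fold higher, and 140 against 0.911 CPM in RNA-rich oocyte barcodes. *Fermt1*, another kindlin, had 15 against 0 and *Dcxr*, a carbonyl reductase, 22 against 2 (5.62, 1.69 to 60.2). Other low-RNA barcodes of the 2 wild-type libraries had the list at 148 and 77.3 CPM.

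The radiation genes were present on both sides of the somatic limit. In the 34 barcodes with a somatic panel under 15% the oocyte radiation list stood at 1182 CPM, and in the 40 others at 616. *Mdm2* had 979 and 430, *Fermt3* 240 and 96.9, and the p53 list 2753 and 1896 CPM. The 3 wild-type irradiated barcodes at an oocyte panel level of 150% or more held 0 UMIs of the oocyte radiation list in 12431 (at most 297 CPM) and had the p53 list at 644 CPM (278 to 1268), against 682 CPM in the 16 wild-type non-irradiated ones. With every barcode thinned to 1300 UMIs, *Mdm2* was found in 48 of 74 wild-type irradiated barcodes (64.9%, 52.9 to 75.6%; 74.3% before thinning), that is in 27 of the 34 and 21 of the 40. Without irradiation it was found in 4 of 30 (13.3%, 3.76 to 30.7%; 36.7% before thinning). The corresponding shares were 58.1% and 11.7% in RNA-rich oocyte barcodes and 6.54% and 4.84% in other low-RNA barcodes, which carry somatic transcripts. Any gene of the p53 list was found in 93.2% and 46.7% of the thinned oocyte-marked low-RNA barcodes with and without irradiation. In other low-RNA barcodes the p53 list was found in 84.3% and 66.9%, so its detection there was also higher with irradiation.

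In *Chek2*-/- libraries the same genes showed no difference that the depth could resolve. *Mdm2* had 12 UMIs (102 CPM) with and 1 (35.8 CPM) without irradiation, a ratio of 1.97 (0.42 to 121), and thinned *Mdm2* was found in 2 of 36 and 0 of 6 barcodes. *Cdkn1a* had 12 UMIs against 0. The oocyte radiation list had 13 against 4 UMIs (0.71, 0.24 to 3.23), *Fermt3*, *Fermt1* and *Bbc3* were at 0 in both, and the p53 list had 104 against 19 (1.27, 0.79 to 2.24), with 1 of 2 comparable genes past 2-fold higher (*Aen*, an exonuclease, with 20 against 1 UMIs) and 0 lower. The intervals of the p53 list in the 2 genotypes (2.58 to 3.98 and 0.79 to 2.24) did not overlap, but they cover counting error only. The libraries also differ in the make-up of their barcodes, and the difference between genotypes was not tested. With 6 barcodes in the *Chek2*-/- non-irradiated library a difference of less than about the width of these intervals was not detectable.

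**Figure D5:**
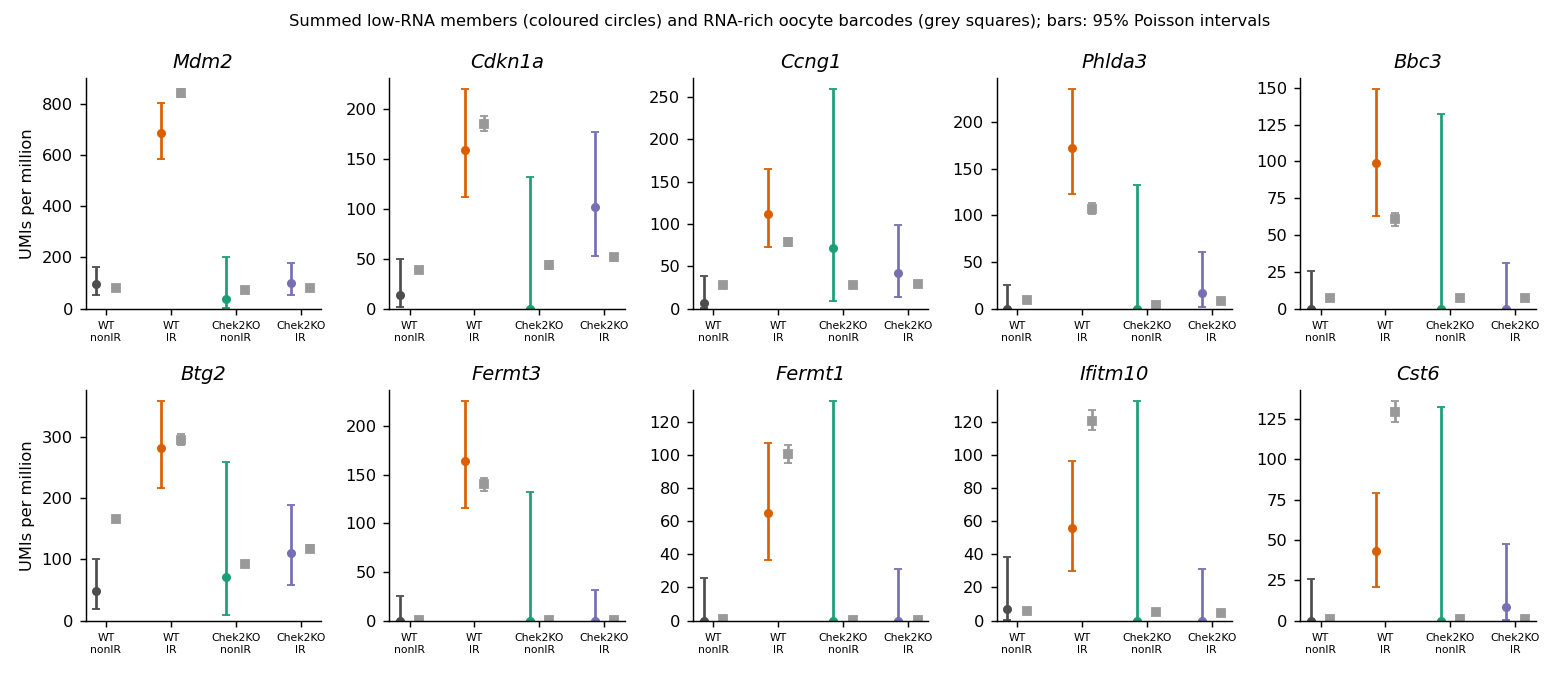
CPM of 10 radiation genes over the summed low-RNA members (coloured circles) and RNA-rich oocyte barcodes (grey squares) of each library, with exact 95% Poisson intervals that cover counting error only. Mdm2 is at 686 in the wild-type irradiated members and at 96.9, 35.8 and 102 in the other 3 libraries, and each panel has its own scale from 0.

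Between the *Chek2*-/- libraries 1515 genes could be compared, of which 134 were at least 2-fold higher (8.84%) and 62 lower (4.09%) after irradiation. The balance of directions turned with 2 UMIs added in place of 0.5, to 42 higher and 103 lower. In RNA-rich oocyte barcodes 3.37% of 14196 genes were higher and 0.697% lower. Of 21 oocyte genes 2 were higher and 1 lower (ratio 1.05, 0.95 to 1.17), of 9 mitochondrial genes 0 (0.92, 0.81 to 1.05), and of 81 ribosomal protein genes 0 higher and 1 lower (0.91, 0.88 to 0.93). Among genes with at least 50 UMIs the largest ratios were those of *Tmsb4x* (8.75, 2.24 to 523), *Gm42418* (4.54), *Malat1* (4.09, 2.21 to 9.59), *Dnaja1* (3.61) and *Ooep* (3.52, 2.84 to 4.45), the last of which belongs to the rule. A single *Chek2*-/- irradiated barcode of 4622 UMIs, with a somatic panel level of 64.0%, held 98 of the 164 *Malat1* UMIs, and without it the *Malat1* ratio was 1.72 (0.89 to 4.12) and that of the mitochondrial list 0.58 (0.50 to 0.66). *Tmsb4x* encodes an actin-binding peptide and *Dnaja1* a co-chaperone. The smallest were *Ppig* (0.20), *Eif1ax* (0.39), *Mrpl30* (0.39), *Zcrb1* (0.49) and *Pcbp2* (0.49).

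Without irradiation, the *Chek2*-/- barcodes had less mitochondrial and oocyte RNA and more ribosomal protein RNA than the wild-type ones, in sums over 6 and 30 barcodes. Of 1810 genes 271 were at least 2-fold higher (15.0%) and 323 lower (17.8%), and in RNA-rich oocyte barcodes 0.85% of 14819 genes were higher and 7.42% lower. With 2 UMIs added the balance turned to 360 higher and 150 lower. Oocyte genes had 2 of 24 higher and 11 lower (ratio 0.57, 0.52 to 0.63), ribosomal protein genes 34 of 80 higher and 0 lower (1.82, 1.76 to 1.88), and mitochondrial genes 10 of 11 lower (0.19, 0.17 to 0.22). The corresponding ratios in RNA-rich oocyte barcodes were 1.15, 0.97 and 0.79, with no gene of these lists past 2-fold. There the oocyte and ribosomal protein lists thus went the other way. Single barcodes weigh on the ratios of the oocyte-marked low-RNA barcodes beyond the intervals. Without 1 of the 6, with 6306 UMIs and 30.0% ribosomal protein UMIs, they were 0.64, 1.49 and 0.12. With barcodes of an oocyte panel level under 150% alone (4 against 14 barcodes, a choice made after the values had been seen), the ratios were 0.72 for the oocyte list, 1.39 for ribosomal protein genes and 0.14 for mitochondrial genes. Among genes with at least 50 UMIs the largest ratios were those of *Gsta4* (4.16), *Ppig* (4.13), *Gm11985* (4.03), *Sycp3* (3.32, 2.13 to 5.08) and *Itm2b* (3.18). Among the smallest, *Malat1* was at 0.04 (0.02 to 0.06), *mt-Nd3* at 0.05 and *Astl*, which encodes a protease of the egg, at 0.11, and *Top1* and *Ccdc69* had 0 UMIs against 84 and 57, at least 5.41-fold and 3.67-fold lower. The 3 *Malat1*-rich barcodes held 1279 of the 1386 wild-type *Malat1* UMIs, and without them *Malat1* had 323 against 860 CPM (0.39, 0.17 to 0.74). RNA-rich oocyte barcodes had 2204 against 2833 CPM.

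Between the wild-type libraries, among genes with at least 50 UMIs in both together, the largest ratios belonged to matrix genes of somatic cells and to *Rpgrip1*. Radiation genes with fewer UMIs, such as *Phlda3* and *Fermt3*, were not ranked. *Igfbp4*, which binds insulin-like growth factors, had 79 against 2 UMIs (19.8, 6.60 to 207), *Col1a1* 109 against 4 (15.2), *Mgp*, a matrix protein, 98 against 5 (11.2) and *Col3a1* 124 against 7 (10.4). *Rpgrip1*, known for its role in photoreceptor cilia, had 115 against 5 UMIs (13.1, 5.98 to 45.0), in 41 of the 74 wild-type irradiated barcodes and with 17 UMIs in the highest. It stood at 496 CPM there, at 34.6, 35.8 and 50.8 in the other 3 libraries, at 29.2 in RNA-rich oocyte barcodes and 42.0 in other low-RNA barcodes of the same library. The smallest ratios were those of *Gm47432* (0.04), *AC125149.3* (0.11), *Gm813* (0.12), *Fbxw18* (0.12) and *A530040E14Rik* (0.12), the last of which had 292 UMIs in the wild-type non-irradiated library.

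Over the 4 libraries together, genes were ranked by their ratio to RNA-rich oocyte barcodes. A gene needed at least 200 UMIs summed over both classes, so its UMIs in the oocyte-marked low-RNA barcodes could be few. *Rpgrip1* had the largest ratio here too (10.5, 8.70 to 12.6), and 115 of its 127 UMIs were from the wild-type irradiated library. It was followed by *AY036118* (8.26), *AC168977.1* (8.15), *Prss8* (8.07), *B430010I23Rik* (7.50), *Tagln* (6.43), *Gm26699* (6.41), *Igfbp4* (6.37), *Emilin1* (6.18) and *Lum* (6.12). These ratios pool libraries that differ, since all 13 *Prss8* UMIs came from the wild-type irradiated barcodes (56.1 CPM, beside 12.8 CPM in RNA-rich oocyte barcodes of that library) and all 10 *B430010I23Rik* UMIs from 3 wild-type non-irradiated barcodes. *Tagln*, *Igfbp4*, *Emilin1* and *Lum* are genes of smooth muscle and stroma, and 26 of 28, 79 of 82, 19 of 19 and 28 of 28 of their UMIs came from the wild-type irradiated library. The smallest ratios were those of 10 genes with 0 UMIs in the 146 barcodes, among them *Prkaa2*, a catalytic subunit of the energy sensor AMPK, and *Mex3a*, an RNA-binding protein.

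Against the other low-RNA barcodes, under the same limit of 200 UMIs, the largest ratios all belonged to genes that the wild-type non-irradiated library held at the highest level. *A530040E14Rik* was 617-fold, *Bcl2l10* 471-fold, *Trim61* 408-fold, *H1foo*, the linker histone of the oocyte, 365-fold and *Pkd2l2* 363-fold higher. *C86187* (341), *Khdc3* (335), *Zp3* (328), *E330034G19Rik* (307) and *Arhgap20os* (299) followed, of which *Zp3* belongs to the rule. The rule genes were used to choose both classes, so the size of the ratios of other oocyte genes depends in part on that choice. The values are therefore a description. The smallest ratios were those of *Hmcn1*, *Cma1*, *Mex3a*, *Col4a4*, *Fmo2*, *Robo2*, *Sox11*, *Mcpt4*, *Snai2* and *Gm266*. The mast cell proteases *Cma1* and *Mcpt4* and 7 others had 0 UMIs in the 146 barcodes, and the basement membrane collagen *Col4a4* had 2.

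The barcodes on either side of the limits of the rule were as follows. Just outside the oocyte limit, 6 barcodes under 10000 UMIs with the 5 genes at 0.25 to 0.30% had oocyte panel levels of 14.6 to 27.3% and a median somatic level of 197% (5.44 to 408%). Just inside, 5 barcodes at 0.30 to 0.40%, all wild-type irradiated, had oocyte levels of 13.3 to 54.2% and a median somatic level of 17.0% (0 to 325%), so the ranges overlapped. Around the UMI limit, 9 barcodes with 8228 to 9945 UMIs had a median oocyte level of 102% and somatic level of 7.58%, and 11 with 10399 to 12279 UMIs had 48.5% and 3.01%. The mitochondrial limit alone kept out 2, 1, 1 and 3 barcodes.

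Below the minimum of 1000 genes more barcodes carried oocyte transcripts. The 5 genes reached 0.3% in 84 of 379 such barcodes (22.2%, 18.1 to 26.7%) in the wild-type non-irradiated library and in 77 of 574 (13.4%, 10.7 to 16.5%) in the wild-type irradiated library. In the *Chek2*-/- libraries they did so in 20 of 236 (8.47%) without and 123 of 378 (32.5%, 27.8 to 37.5%) with irradiation. Their median UMIs were 584, 679, 699 and 752, and their median oocyte panel levels 136%, 89.7%, 99.9% and 82.6%. The order of the libraries thus differed from that above the minimum, where the wild-type irradiated library held the most.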

How the data were processed

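Single-cell RNA was measured in 4 libraries, 1 per condition, and 24 bulk libraries of the series were not used here. The authors ran Cell Ranger (V4 in the methods, while the matrix header names 3.0.2) on mm10 (GRCm38) after bcl2fastq 2.20.0.422, and deposited raw UMI counts per gene and barcode, after Cell Ranger's cell calling and before the study's own filters on cells, for 31053 features. Cell Ranger was run with default parameters per the methods, and of ambient correction the sources used here say nothing.

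Barcodes were filtered (at least 1000 genes, at most 20% mitochondrial UMIs), divided by UMIs and the 5 rule genes, and summed per library. Ratios are of CPM with 0.5 UMIs added, among genes with at least 20 UMIs in both libraries together, and "called" means past 2-fold. Shares have Clopper-Pearson, sums Poisson and medians order-statistic limits at 95%. Groups came from the labels. The members and gene lists were chosen with earlier results of these data known. Genes were named by a rule: the rule genes, genes of the lists, the 5 largest and 5 smallest ratios per comparison (at least 50 UMIs) and the 10 largest and smallest per class (at least 200 UMIs). The 3 Malat1-rich barcodes and the limits at 50%, 150%, 15% and 2% were singled out after their values had been seen. Scrublet in scanpy 1.11.5 was run per library with seed 0, and no barcode was removed by it. Thinning drew 1300 UMIs per barcode. Counting and ratios were tested on simulated data. Python 3.11.15, matplotlib 3.10.9, scikit-image 0.26.0, anndata 0.12.19, pandas 2.3.3, scikit-learn 1.9.0, numpy 2.4.6 and scipy 1.17.1 were used. Depth was 27905 to 231644 UMIs over the members of a library, which sets the precision of a ratio. Alternatives moved the gene minimum, the UMI limit, the rule threshold, the panels and the count minimum, and set a limit of 50% on ribosomal protein UMIs.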

Additional observations from a re-analysis of the deposited data

Results flagged for a closer look

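The median mitochondrial share of the oocyte-marked low-RNA barcodes differed between the irradiated and the non-irradiated library by -4.03 percentage points in wild-type and by 0.0248 in *Chek2*-/-. The median oocyte panel level differed by -122 percentage points in wild-type and by 14.7 in *Chek2*-/-. Both are listed because the medians moved in opposite directions in the 2 genotypes under the limits of the rule. The *Chek2*-/- direction turned under other limits. The mitochondrial medians with and without irradiation were 0.529% and 0.693% with no mitochondrial limit, 0.940% and 2.09% at a minimum of 500 genes, and 0.431% and 0.460% with a somatic panel under 15%. The oocyte panel medians were 81.6% and 118% under 5000 UMIs and 84.6% and 123% with the rule genes at 0.6% or more. With 1 library per condition neither difference between genotypes was tested. In both measures the non-irradiated *Chek2*-/- median rests on 6 barcodes.

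Outside the compared barcodes, 32.5% of the *Chek2*-/- irradiated barcodes under 1000 genes had the 5 oocyte genes at 0.3% or more, above the 8.47% of the *Chek2*-/- non-irradiated library. It is listed because these barcodes enter no comparison. Outlying libraries were not sought, with 1 library per condition.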

How the results depend on the processing

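Of 106 alternative values for 17 results, 84 stayed within the interval of the main value (counts of genes within 1.5 times) and 22 moved. This compares each value with its own main value, and the difference between the *Chek2*-/- medians changed sign under some alternatives, as given above. No paired analysis was possible because each condition has 1 library and no test was run.

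With at least 500 genes, an alternative chosen after seeing the data, the shares became 0.677%, 1.15%, 0.197% and 1.33%, so the *Chek2*-/- irradiated library then had the largest share, the median mitochondrial share became 3.72% (wild-type non-irradiated) and 0.940% (*Chek2*-/- irradiated), and the wild-type irradiated oocyte panel level 70.1%. Fewer than 5000 UMIs gave a wild-type non-irradiated share of 0.176%. Rule genes at 0.6% or more gave a wild-type irradiated share of 0.522% and oocyte level of 61.6%. Reference oocytes at 0.3% gave a *Chek2*-/- irradiated oocyte level of 94.3%. Without barcodes of 15% somatic panel or more, also added after seeing the data, the wild-type irradiated share was 0.329% (below the 0.360% of *Chek2*-/- irradiated), the wild-type irradiated medians were 0.838% mitochondrial and 86.5% oocyte panel, and 536 of 2549 genes tested passed 2-fold between the wild-type libraries (21.0%) instead of 897 of 3908 (23.0%). Among barcodes with an oocyte panel under 150%, again added, 241 of 690 genes passed between the non-irradiated genotypes (34.9%) instead of 594 of 1810 (32.8%).

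A minimum of 50 UMIs left 295, 28 and 169 genes past 2-fold (wild-type irradiation, *Chek2*-/- irradiation, genotype) where 897, 196 and 594 passed at 20, and a minimum of 1 gave 5221, 3420 and 4102. The genes tested then numbered 1493, 502 and 557 at 50 and 13493, 10238 and 11480 at 1. With 2 UMIs added the total counts stayed within 1.5 times, but the split of higher against lower turned in both *Chek2*-/- comparisons (42 and 103, and 360 and 150). The ratio of the oocyte radiation list in wild-type barcodes was 12.2, 23.6 per oocyte panel UMI and 16.1 without the somatic-rich barcodes. Depth limits every *Chek2*-/- comparison, since the non-irradiated library has 6 members.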
